A study of Caenorhabditis elegans with 12 samples.

Results

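The nuclear hormone receptors of *Caenorhabditis elegans* that carry an *nhr* symbol were followed in whole-animal mRNA of 5 groups of worms. A gene was a member when its WormBase identifier had a symbol made of *nhr-* and a number. All 269 such symbols of the name table were among the 19997 genes listed, and all 269 genes are annotated as protein-coding. No measured value entered this choice.

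Nuclear hormone receptors are transcription factors with a zinc-finger DNA-binding domain and a pocket that can bind small lipophilic molecules such as steroids, fatty acids and bile-acid-like compounds. The family is far larger in nematodes than in insects or vertebrates. Most worm members descend from an ancestor related to the vertebrate fatty acid sensor HNF4, while a small set has direct counterparts in flies and mammals. In worms, receptors of this family adjust fat desaturation and breakdown, propionate and one-carbon metabolism, detoxification, immunity, moulting and organ formation, and many act in the intestine. Few members have a known ligand, and most have no described role.

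The WT group was *eri-1(mg366)*, a strain with enhanced RNA interference, and the *daf-2* group was *daf-2(e1370); eri-1(mg366)*, which has reduced insulin/IGF-like signalling and shares the *eri-1* allele with WT. Each had 3 samples from day 1 of adulthood. The third strain was *glp-4(bn2)*, whose temperature-sensitive allele impairs germ cell production at the restrictive temperature. It had 2 samples at each of day 1, day 3 and day 7, from a collection that the methods describe as triplicate. All 12 samples were whole animals, with at least 80 worms per sample. Adults were kept at 20 °C on 50 µM FUDR, which blocks the development of progeny. The labels give 15 °C for the larval growth of every sample, whereas the methods state a higher larval temperature for *glp-4* animals. The *daf-2* labels name control RNAi bacteria and the WT labels do not, so genotype and bacteria cannot be told apart in that comparison. In the comparison of *glp-4* with WT, the allele, the *eri-1* background and the larval temperature cannot be told apart.

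Total counts per sample lay between 4538353 and 22484551, lowest in the day 7 *glp-4* samples. Summed levels of 6 germline marker genes were 1311 to 1335 CPM, normalised counts scaled to a library of 1000000, in WT, 1059 to 1208 in *daf-2* and 41.2 to 50.5 in *glp-4* animals on day 1. In *glp-4* animals they reached 147 to 153 on day 3 and 269 to 278 on day 7, and 0 of the 6 genes were at 0 in every sample of a group. Between day 1 and day 7 the summed level of 3 muscle markers went from 15313 to 18175 down to 962 to 1068 CPM, and that of 3 epidermis markers from 3170 to 4073 down to 94.4 to 96.3 CPM. In whole animals, fewer cells of a type and less RNA per cell cannot be told apart, which applies to each result on the receptors given here.

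The receptors are unevenly placed in the genome. Chromosome V holds 167 of the 269 members (62.1%) but 25.0% of all listed genes, chromosome IV holds 33, chromosomes I and X hold 23 each, chromosome II 15 and chromosome III 8. In the WBcel235 annotation, 137 members sit in 44 runs of neighbouring members with no other protein-coding gene between them. The longest run has 9 members, from *nhr-185* to *nhr-124* at chrV:3844429-3886204. The exons of 47 members overlap those of another protein-coding gene, and because the library kit keeps no strand, reads in such stretches cannot be assigned with certainty. How similar neighbouring receptors are in sequence was not measured here.

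Most receptors were weakly expressed. A mean of at least 1 TPM, a unit that corrects for transcript length, was reached by 146 members in WT, 149 in *daf-2*, 171 in *glp-4* animals on day 1, 173 on day 3 and 178 on day 7. As a share of members this was 54.3% in WT and 55.4% in *daf-2* animals, under the 62% and 64.5% of all other genes that reached that level. In *glp-4* animals the members' share was 63.6% on day 1 and 64.3% on day 3, above the 61.5% and 62.8% of other genes, and 66.2% on day 7, under the 67.9% of other genes. No count was seen in any sample for 8 members: *nhr-77*, *nhr-82*, *nhr-166*, *nhr-169*, *nhr-242*, *nhr-252*, *nhr-269* and *nhr-288*. The summed level of all members was 993 to 1072 TPM in WT and 1023 to 1102 TPM in *daf-2* animals. It was 1739 to 1769 TPM in *glp-4* animals on day 1, 1883 to 1972 TPM on day 3 and 2295 to 2313 TPM on day 7. On this scale the sums of *daf-2* and WT samples overlapped, and each *glp-4* age lay above both. On the CPM scale set by TMM factors, *daf-2* animals were lower, with 1308 to 1386 CPM against 1418 to 1532 CPM in WT and no overlap. The order of the *glp-4* ages was also turned, with 3328 to 3381 CPM on day 1 and 3045 to 3061 CPM on day 7, so both patterns of the summed level depended on the scale.

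The highest mean level belonged to *nhr-49*, an HNF4-type receptor that drives fatty acid desaturation and breakdown. Its levels were 77.7, 68 and 68.6 TPM in WT, 91.8, 87.6 and 84.6 TPM in *daf-2*, 62.8 and 62.3 TPM in *glp-4* animals on day 1, 88.2 and 83.3 TPM on day 3 and 89.6 and 86.9 TPM on day 7. Among the 10 members with the highest mean, *nhr-49* and *nhr-46* varied least between groups, with 1.41-fold and 1.36-fold between the highest and the lowest group mean. Second was *nhr-97*, at 28.3 to 32 TPM in WT and 89.6 to 107 TPM in the 6 *glp-4* samples. *nhr-14*, which acts in iron uptake and immunity, had 8.34 to 8.45 TPM in WT and 72.5 and 77.2 TPM in *glp-4* animals on day 3. *nhr-68*, an activator of the propionate shunt, stood at 78.1 and 80.4 TPM on day 1 and at 11.8 and 15.4 TPM on day 7. *nhr-66*, a partner of NHR-49 in lipid metabolism, had its highest level in WT and *daf-2* animals, at 42.4 to 51.7 TPM, against 7.39 to 13.1 TPM in *glp-4* animals. The other members of the 10, in order of mean, were *nhr-88* (34.8 TPM), *nhr-76* (31.2 TPM), *nhr-46* (31.1 TPM), *nhr-3* (27.8 TPM) and *nhr-35* (26.4 TPM). The neighbours *nhr-76* and *nhr-46* differed by less than the spread of either between samples of 1 group.

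**Figure D1:**
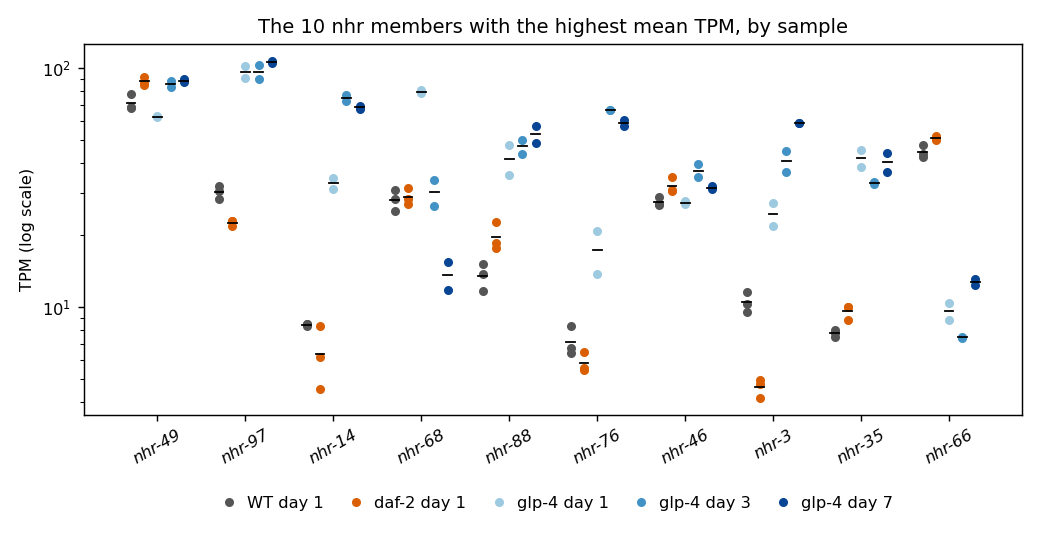
Level in TPM (log axis) of the 10 members with the highest mean, in each of the 12 samples, with points for samples and short lines for group means. *nhr-49* stays within 62.3 to 91.8 TPM, while *nhr-14* and *nhr-76* are higher in every *glp-4* sample than in every WT or *daf-2* sample and *nhr-66* is lower.

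The first comparison asked which receptors differ in animals with reduced insulin/IGF-like signalling. Of the 167 members with enough counts to test, 40 were lower and 16 were higher in *daf-2* than in WT animals at an adjusted p under 0.05. Over all 13528 genes tested, 48% were called, 22.5% as lower and 25.5% as higher, so the lower share of members (24.0%) was near the background and the higher share (9.58%) was under it. With a change of at least 2-fold, 12 members fell (7.19%, against 4.15% of all genes) and 4 rose (2.40%, against 10.6%). The median log2 fold change was -0.05 over the tested members and 0.00 over all tested genes. The split of lower and higher members rested on the scaling, being 25 and 25 with library totals alone and 23 and 20 with limma on log2(TPM + 1). Without WT replicate 3, 26 members were lower. Of the cell type markers, 4 of 6 germline, 2 of 3 tested embryo, 2 of 3 epidermis and 2 of 4 intestine genes were also lower in *daf-2* animals. Higher were 3 of 3 sperm genes and 1 gene each of epidermis, intestine and muscle. The part of these markers in the members' changes was not tested.

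The largest fall was that of *nhr-6*, the worm counterpart of the NR4A receptors, which is needed to form the spermatheca. Its normalised levels were 20, 27 and 38.3 CPM in WT and 4.21, 4.03 and 3.4 CPM in *daf-2* animals. Every *daf-2* sample lay well under every WT sample, and the log2 fold change was -2.88 ± 0.23 (SE, adjusted p = 3.0e-06, edgeR's quasi-likelihood test). The gene is at chrIII:3573581-3578771, and 3.08% of its exon bases overlap a gene on the other strand.

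*nhr-8*, which acts in cholesterol balance and resistance to toxins and is related to the vitamin D and bile acid receptors of vertebrates, had 22.3, 20.5 and 24.8 CPM in WT and 10.1, 11.7 and 9.46 CPM in *daf-2* animals (log2 fold change -1.12 ± 0.11 SE, adjusted p = 1.6e-05). *nhr-3* had 16.2, 15.5 and 18.6 CPM in WT and 7.51, 6.95 and 5.91 CPM in *daf-2* animals (log2 fold change -1.31 ± 0.13 SE, adjusted p = 1.2e-05). *nhr-137* had 13.4, 12.9 and 15.4 CPM in WT against 6.11, 5.22 and 5.01 CPM (log2 fold change -1.35 ± 0.13 SE, adjusted p = 1.2e-05). For these 3 genes the levels in *daf-2* animals were tightly grouped. Also lower were *nhr-5* (log2 fold change -1.45), *nhr-50* (-1.77), *nhr-55* (-1.80) and *nhr-19* (-1.10), of which *nhr-55* was the most scattered, with 6.71, 4.45 and 2.35 CPM in *daf-2* against 13.7 to 17.2 CPM in WT. No role is given here for these 4 receptors or for *nhr-3* and *nhr-137*.

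The 4 members that rose at least 2-fold were all weakly expressed. *nhr-208* had 0.858, 0.328 and 0.14 CPM in WT and 1.35, 2.16 and 2.7 CPM in *daf-2* animals, from 3 to 15 and 27 to 54 counts (log2 fold change 2.25 ± 0.50 SE, adjusted p = 0.00333). With 1 sample left out its log2 fold change ran from 1.76 without WT replicate 3 to 3.19 without WT replicate 1. *nhr-178* had 5 to 7 counts per WT sample and 20 to 26 counts per *daf-2* sample (log2 fold change 1.90 ± 0.37 SE, adjusted p = 0.00152). *nhr-53* (log2 fold change 1.19) and *nhr-44* (1.01) stayed under 3 CPM in every sample of both groups. That the groups did not overlap was part of the rule by which these 4 and the other named members were chosen.

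**Figure D2:**
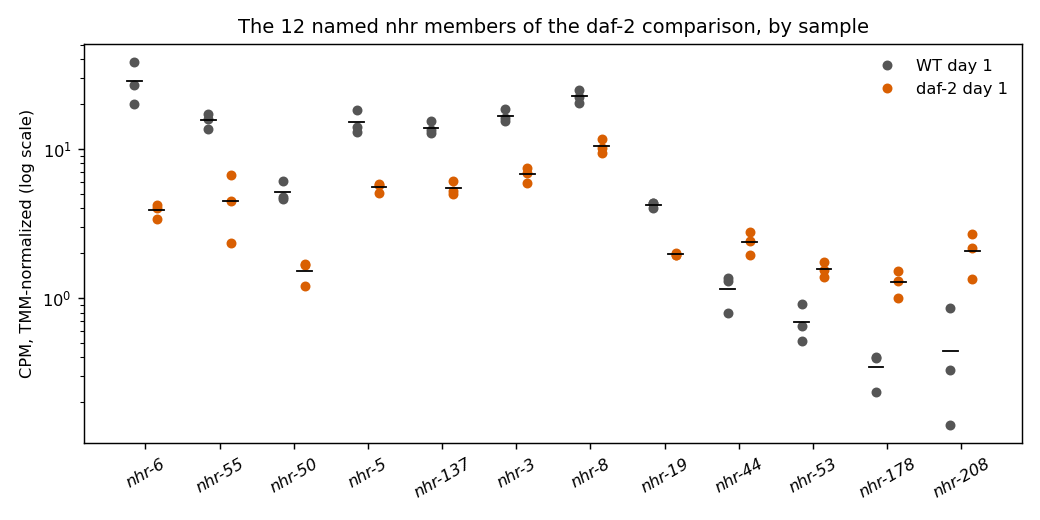
TMM-normalized CPM (log axis) of the 8 members named as lower and the 4 named as higher in *daf-2* animals, with 3 WT (grey) and 3 *daf-2* (orange) samples each and lines for group means. *nhr-6* is the most separated of the falling members, and the 4 rising members at the right lie at or under 2.78 CPM in every sample.

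By role, the receptors with counterparts in insects or vertebrates included 4 that were lower and 0 that were higher among 8 tested, where 22.5% of all genes were lower and 25.5% higher, with a median log2 fold change of -0.18. The 4 were *nhr-6*, *nhr-8*, the moulting receptor *nhr-23* (-0.17) and *nhr-48* (-0.21). The calls of *nhr-23* and *nhr-48* were lost without WT replicate 3 (adjusted p = 0.172 and 0.056) and without *daf-2* replicate 2 (adjusted p = 0.124 and 0.0685). Of 8 receptors of lipid, propionate and one-carbon metabolism, *nhr-10* was lower (-0.37) and the other 7 did not pass the test. That call was lost without WT replicate 2 (adjusted p = 0.0556), *daf-2* replicate 1 (adjusted p = 0.0556) or *daf-2* replicate 2 (adjusted p = 0.0675). *nhr-49* stood at a mean of 134 CPM against 123 CPM, a difference of 0.13 ± 0.06 on the log2 scale (SE, adjusted p = 0.0936), and its partner *nhr-80* at 12.4 against 9.99 CPM (0.31 ± 0.15, adjusted p = 0.112).

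Among 6 stress and xenobiotic receptors, *nhr-8*, *nhr-14* (-0.57) and *nhr-45* (-0.48), which acts in the response to mitochondrial stress, were lower. *nhr-57*, a gene induced by hypoxia, was higher, with 8.72 against 5.47 CPM (log2 fold change 0.67 ± 0.17 SE, adjusted p = 0.00678). *nhr-86*, an immune receptor, was called higher at 0.23 ± 0.08 (SE, adjusted p = 0.0354), a call lost without any of 5 of the 6 samples (adjusted p between 0.0654 and 0.14). The call of *nhr-45* was lost without WT replicate 3 (adjusted p = 0.0573). Of the 7 tested developmental receptors, *nhr-6*, *nhr-23* and the excretory-cell receptor *nhr-31* (-0.81) were lower and *nhr-2*, a receptor of the early embryo, was higher (0.37). Over all genes 22.5% were lower and 25.5% higher.

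Genes known as targets of these receptors were followed in the same samples. Of 6 NHR-49 and NHR-80 targets, 5 were higher in *daf-2* animals, where 25.5% of all genes were, with a median of 0.87 over the 6 genes. The desaturase gene *fat-5* had a mean of 67.2 CPM against 26.9 CPM (log2 fold change 1.32 ± 0.21 SE) and *acs-2*, an acyl-CoA synthetase of fat breakdown, 13.5 against 5.46 CPM (1.32 ± 0.30 SE). *fat-7*, another desaturase, was the 1 that was lower (log2 fold change -0.86 ± 0.24 SE). Of 5 propionate shunt genes controlled by NHR-10 and NHR-68, 3 were lower, where 22.5% of all genes were, and the median was -0.19. These 3 were led by the acyl-CoA dehydrogenase gene *acdh-1* at -0.76 ± 0.19 (SE).

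The second question was how the receptors changed as the soma of *glp-4* animals aged. Between day 1 and day 3, 33 of 181 tested members rose and 30 fell. This was 34.8% of the members, against 54.1% called among all 13222 genes tested (26.6% higher and 27.5% lower). Between day 1 and day 7, 41 rose and 38 fell, or 43.6% of members against 61.9% of all genes (30.6% higher and 31.3% lower). Between day 3 and day 7, 13 rose and 18 fell, or 17.1% of members against 32.6% of all genes (14.2% higher and 18.4% lower). In each comparison the share of members called was under that of all genes in both directions, while the median mean level of the tested members was also lower (9.3 against 13.3 CPM between day 1 and day 7). At least 2-fold, 15 rose and 14 fell by day 3 (all genes 16.2% and 15.2%), 22 rose and 20 fell by day 7 (all genes 20.1% and 20.2%), and 7 rose and 3 fell after day 3 (all genes 6.94% and 7.99%). In log2 units the members' medians were 0.14, 0.03 and -0.03 for these 3 comparisons, and those of all genes 0.00, 0.02 and 0.01.

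These counts were sensitive to single samples and to scaling. Without day 3 replicate 1, 19 members fell between day 1 and day 3, and without day 7 replicate 2, 25 rose between day 1 and day 7. Between day 3 and day 7, leaving out any 1 of the 4 samples left 5 to 7 that rose. Those that fell were 9 without day 3 replicate 1 and 11 without day 3 replicate 2. With library totals alone, 86 rose and 15 fell between day 1 and day 7, and 63 rose and 3 fell between day 3 and day 7. With limma on log2(TPM + 1) the numbers were 69 and 15, and 32 and 4. These settings moved the median log2 fold change of all tested genes to 0.56 and 0.41 between day 1 and day 7 and to 0.51 and 0.30 between day 3 and day 7, and the members' medians moved with it.

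**Figure D3:**
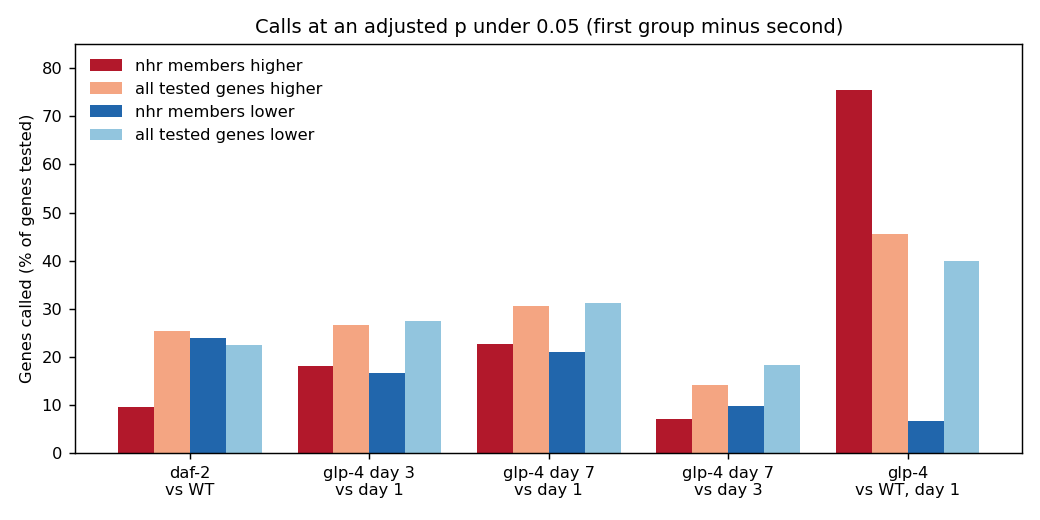
Share of tested *nhr* members (dark bars) and of all tested genes (light bars) called higher (red, orange) or lower (blue) at an adjusted p under 0.05 in each comparison, as a percentage of genes tested. The members' bars are under those of all genes at every age, whereas in *glp-4* against WT 75.4% of members are higher, against 45.5% of all genes. The split at day 7 depends on the scaling.

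Of the 8 receptors of lipid, propionate and one-carbon metabolism, 2 rose and 3 fell by day 3 (all genes 26.6% and 27.5%), and 1 rose and 5 fell by day 7 (all genes 30.6% and 31.3%). Among the day 7 falls, that of *nhr-66* turned to 0.18 with library totals alone and 0.38 with limma on log2(TPM + 1). *nhr-68*, which together with *nhr-10* turns on the propionate shunt, an alternative route of propionate breakdown used when vitamin B12 is scarce, had 109 and 105 CPM on day 1, 32.6 and 41.5 CPM on day 3 and 11.6 and 11.7 CPM on day 7. Each age lay apart from the others, and the log2 fold change was -1.53 ± 0.13 (SE, adjusted p = 2.0e-07) by day 3 and -3.20 ± 0.15 (SE, adjusted p = 3.2e-10) by day 7. *nhr-68* lies at chrV:11573440-11575709.

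*nhr-114*, which acts in one-carbon metabolism and is needed for fertility on a poor diet, had 63.1 and 54.9 CPM on day 1, 10.2 and 11.1 CPM on day 3 and 8.12 and 7.72 CPM on day 7. It fell before day 3 (log2 fold change -2.47 ± 0.15 SE, adjusted p = 6.7e-09), and the later step of -0.43 ± 0.19 did not pass the test (adjusted p = 0.103). *nhr-10* stood at 40.3 and 47.4 CPM on day 1, 52.1 and 51.2 CPM on day 3 and 25 and 31.2 CPM on day 7, and fell between day 1 and day 7 (-0.64 ± 0.15 on the log2 scale, adjusted p = 0.00155). *nhr-80*, a partner of NHR-49 in fat desaturation, fell by day 7 only, from 36.1 and 39.7 to 22.5 and 19.7 CPM (log2 fold change -0.85 ± 0.14 SE), with 33.7 and 37.7 CPM on day 3. With library totals alone, the median of all tested genes by day 7 moved from 0.02 to 0.56, a shift close in size to the fall of *nhr-10*. The size of the day 7 falls of *nhr-10* and *nhr-80* therefore depended on the scaling.

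Of the 5 propionate shunt genes, 4 fell and 1 rose by day 7 (all genes 31.3% and 30.6%). *acdh-1* had a mean of 750 CPM on day 1, 41.2 CPM on day 3 and 3.58 CPM on day 7 (log2 fold change -7.71 ± 0.16 SE from day 1 to day 7). *ech-6*, *hphd-1* and *hach-1*, which encode later enzymes of the shunt, had log2 fold changes of -3.91, -4.26 and -2.76 by day 7, and *alh-8* had one of 0.27 ± 0.10 (SE, adjusted p = 0.0339). The median over the 5 genes was -3.91, against 0.02 over all genes tested.

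*nhr-62*, which is required for the long life of animals under dietary restriction, moved the other way. It had 5.99 and 4.83 CPM on day 1, 20.7 and 20 CPM on day 3 and 31.6 and 32.6 CPM on day 7. The samples of the 3 ages did not overlap, and the log2 fold change reached 1.92 ± 0.18 (SE, adjusted p = 6.0e-07) by day 3 and 2.57 ± 0.18 (SE, adjusted p = 1.5e-08) by day 7. The step from day 3 to day 7 (0.66 ± 0.16 SE, adjusted p = 0.00549) lost its call without day 3 replicate 2 (adjusted p = 0.0591) and without day 7 replicate 2 (adjusted p = 0.051). *nhr-49* had 129 and 133 CPM on day 1, 175 and 170 CPM on day 3 and 132 and 133 CPM on day 7, a rise to day 3 of 0.40 ± 0.10 (SE, adjusted p = 0.00359) while day 7 against day 1 gave 0.02 ± 0.10 (adjusted p = 0.865). In TPM its day 7 samples (89.6 and 86.9) lay above those of day 1 (62.8 and 62.3), so its day 7 result depended on the scale.

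Targets of NHR-49 and NHR-80 split between the steps. *fat-5* went from a mean of 18.1 to 528 CPM between day 1 and day 3 (log2 fold change 4.87 ± 0.13 SE) and stood at 192 CPM on day 7. *fat-6*, a further desaturase gene, went from 538 to 1824 and to 496 CPM, and *hacd-1*, which encodes a β-oxidation enzyme, from 82.8 to 339 and to 50.6 CPM. *acs-2* and *fat-7* were lower on both later days, with log2 fold changes of -2.01 and -1.67 by day 3. In all, 3 of the 6 targets rose and 2 fell by day 3 (all genes 26.6% and 27.5%). By day 7, 2 rose and 3 fell (all genes 30.6% and 31.3%).

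*nhr-61*, to which no role list was assigned, rose in both steps. It had 7.06 and 8.66 CPM on day 1, 12.5 and 12.6 CPM on day 3 and 63.4 and 59.2 CPM on day 7, at chrII:14816136-14818543. Most of the increase fell between day 3 and day 7 (log2 fold change 2.28 ± 0.15 SE, adjusted p = 6.5e-08), and over the whole interval it was 2.95 ± 0.16 (SE, adjusted p = 9.2e-10).

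*nhr-11*, *nhr-76* and *nhr-74* rose early. *nhr-11* had 12.9 and 14.3 CPM on day 1, 64.1 and 64.9 CPM on day 3 and 53.9 and 47.7 CPM on day 7 (log2 fold change 2.24 ± 0.14 SE, adjusted p = 5.4e-09, by day 3). *nhr-76*, needed for serotonin-driven fat loss, had 22.6 and 33.7 CPM, then 100 and 105 CPM, then 72.2 and 68.8 CPM (1.85 ± 0.16 SE, adjusted p = 1.8e-07, by day 3). *nhr-74* had 3.85 and 2.92 CPM, then 22.5 and 23.1 CPM, then 7.25 and 7.88 CPM, and it both rose by day 3 (2.75 ± 0.22 SE) and fell between day 3 and day 7 (-1.58 ± 0.21 SE, adjusted p = 4.9e-05). All 3 were highest on day 3. The step down of *nhr-76* after day 3 (-0.54, adjusted p = 0.0134) lost its call without day 3 replicate 1, day 3 replicate 2 or day 7 replicate 2 (adjusted p = 0.0753, 0.107 and 0.0779). The decline of *nhr-11* after day 3 (-0.35 ± 0.12 SE, adjusted p = 0.0474) lost its call without any 1 of the 4 samples (adjusted p between 0.0774 and 0.317) and turned to 0.16 with library totals alone.

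*nhr-14* had 56.7 and 64.1 CPM on day 1, 130 and 126 CPM on day 3 and 91.7 and 92.1 CPM on day 7 (log2 fold change 1.09 ± 0.11 SE by day 3 and 0.60 ± 0.11 SE by day 7). *nhr-57* also rose, by 0.92 ± 0.22 (SE, adjusted p = 0.00194) to day 7. Together with *nhr-8*, which fell to 29.7 and 30.4 CPM on day 7 from 55.8 and 65.6 CPM (-1.01 ± 0.14 SE, adjusted p = 1.5e-05), these were the 3 called among the 6 stress and xenobiotic receptors by day 7. *nhr-45*, *nhr-86* and *nhr-176*, a receptor for a xenobiotic, had log2 fold changes of -0.31, 0.37 and -0.52 that did not pass the test. Over all genes 61.9% were called by day 7, 30.6% as higher and 31.3% as lower.

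Among the conserved and developmental receptors, *nhr-67*, the tailless counterpart, rose from 1.61 and 1.91 CPM on day 1 to 9.06 and 6.31 CPM on day 3 and 8.64 and 12.4 CPM on day 7 (log2 fold change 2.57 ± 0.33 SE, adjusted p = 9.2e-06, by day 7). *nhr-25*, the Ftz-F1 counterpart that acts in the epidermis and in moulting, had 9.42 and 6.29 CPM on day 1, 1.53 and 0.686 CPM on day 3 and 2.25 and 2.88 CPM on day 7 (-2.79 ± 0.42 SE, adjusted p = 5.4e-05, by day 3). Without day 3 replicate 1 that change was -3.48, and without day 3 replicate 2 it was -2.34. *nhr-41*, a TR2/TR4 counterpart, had 89.6 and 78.4 CPM, then 56.5 and 49.1 CPM, then 37.1 and 34.5 CPM (-1.23 ± 0.13 SE, adjusted p = 1.4e-06, by day 7). Here 1 receptor rose and 2 fell, with the ages of day 1 and day 7 apart in each.

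*nhr-31* went from 106 and 119 CPM to 46.3 and 51.9 CPM and then 59.2 and 72.7 CPM (-1.20 ± 0.13 SE by day 3), and *nhr-19* from 46.9 and 45.3 CPM to 15.4 and 15.8 CPM and then 20.2 and 22.4 CPM (-1.56 ± 0.14 SE by day 3). Both had their lowest values on day 3. The rise of *nhr-19* after day 3 (0.45, adjusted p = 0.0348) lost its call without any 1 of the 4 samples (adjusted p between 0.0803 and 0.244), and that of *nhr-31* (0.43, adjusted p = 0.0245) without day 3 replicate 1, day 3 replicate 2 or day 7 replicate 2 (adjusted p = 0.208, 0.0748 and 0.321). Of the 9 tested conserved receptors, 1 rose and 6 fell by day 3, and 1 rose and 4 fell by day 7. Of the 9 developmental receptors, 1 rose and 5 fell by day 3, and 2 rose and 5 fell by day 7. Over all genes 26.6% rose and 27.5% fell by day 3, and 30.6% rose and 31.3% fell by day 7. The day 3 falls of *nhr-8*, *nhr-23*, *nhr-60*, *nhr-85* and *nhr-91* each lost their call with 1 or another sample left out. So did the day 7 falls of *nhr-40*, *nhr-60* and *nhr-85*. The day 7 fall of *nhr-85* also turned, to 0.04 with library totals alone and 0.15 with limma on log2(TPM + 1). The muscle and epidermis markers fell over the same days, with 3 of 3 muscle genes and 3 of 3 epidermis genes lower by day 7, and their part in the falls of these receptors was not tested.

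**Figure D4:**
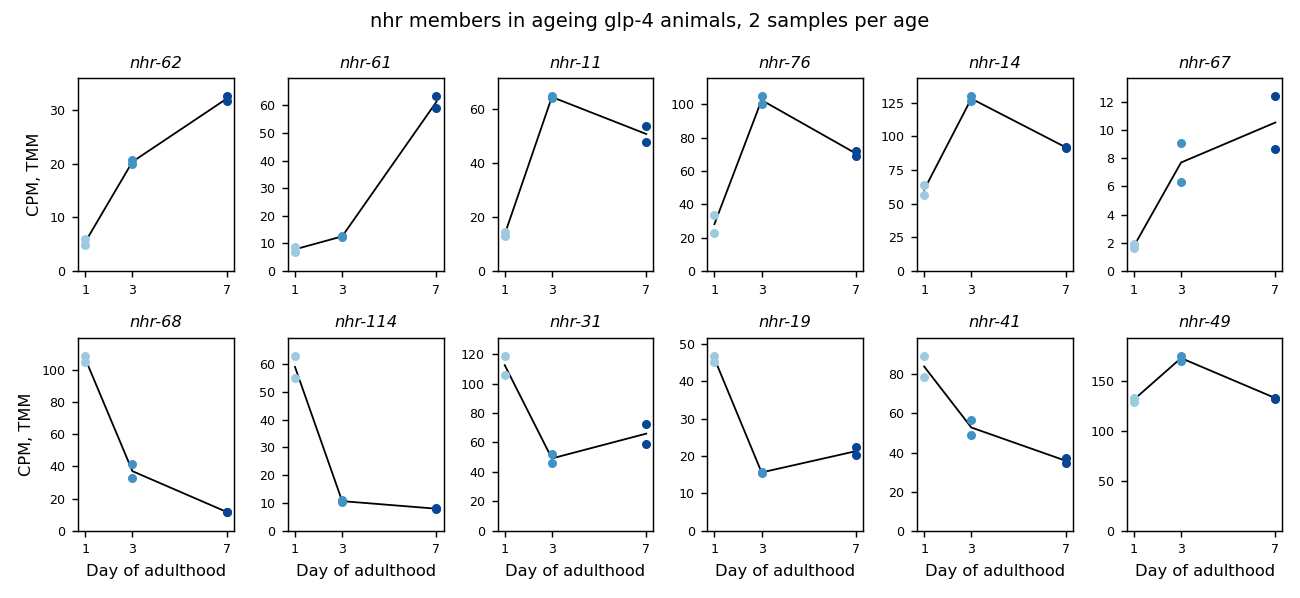
TMM-normalized CPM of 12 named members in *glp-4* animals against day of adulthood, with 2 samples (points) per age and a line through the means, each panel starting at 0 on its own scale. *nhr-62* and *nhr-61* are highest on day 7, *nhr-11*, *nhr-76*, *nhr-14* and *nhr-49* on day 3 (the step down after day 3 of *nhr-11*, *nhr-14* and *nhr-49* turned upward with library totals alone, to 0.16, 0.03 and 0.13 on the log2 scale), and *nhr-68*, *nhr-114*, *nhr-31*, *nhr-19* and *nhr-41* on day 1.

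The remaining named members of the age comparisons were less abundant. By day 7, *nhr-112* (log2 fold change 1.90), *nhr-18* (1.35) and *nhr-131* (1.18) had risen and *nhr-121* (-1.58), *nhr-101* (-1.18) and *nhr-137* (-1.02) had fallen. For *nhr-101*, 63.45% of the exon bases overlap another gene on the opposite strand, so its value may include reads of that gene. *nhr-43* rose by 1.01 and *nhr-179* fell by 1.94 on the log2 scale between day 1 and day 3. *nhr-22* was called lower on day 3 (-0.62) and higher on day 7 (0.44) than on day 1, with 19.3 and 24 CPM, 12.3 and 16.1 CPM and 29.4 and 29.5 CPM. The day 3 call was lost without day 1 replicate 2 or day 3 replicate 1 (adjusted p = 0.0592 and 0.12). The day 7 call was lost without any 1 of day 1 replicate 1, day 7 replicate 1 and day 7 replicate 2 (adjusted p = 0.166, 0.111 and 0.117). *nhr-115* was lowest on day 3, with 2.55 and 2.88 CPM against 7.06 to 7.6 CPM on the other days.

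A few members with very few counts also passed the test, and for these the counts themselves are given. *nhr-257* had 0 counts in both day 1 samples and 12 and 20 on day 3, at least 14.3-fold higher when day 1 is set to 3 counts over the group. *nhr-214* had 0 and 2 counts on day 3 and 14 and 16 on day 7, a ratio of 18.3 (counting interval 4.64 to 158). *nhr-216* had 2 and 1 counts on day 3 and 14 and 10 on day 7, a ratio of 9.76 (2.96 to 50.6), and *nhr-235* had 13 and 18 counts on day 3 and 2 and 0 on day 7, 12.7-fold lower (3.24 to 110). The calls of *nhr-214*, *nhr-216* and *nhr-235* between day 3 and day 7 were each lost without 1 of the samples, *nhr-214* without day 3 replicate 1 (adjusted p = 0.0749), *nhr-216* without 1 of 3 samples (adjusted p between 0.0753 and 0.122) and *nhr-235* without day 3 replicate 2 or day 7 replicate 2 (adjusted p = 0.0647 and 0.0832). These intervals cover counting error only.

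The *daf-2* and the age comparisons share no samples, so their calls can be set side by side for the 164 members tested in both. Of the 40 members lower in *daf-2* animals, 12 (30%) were also lower on day 3 and 14 (35.0%) on day 7 than on day 1, which was 42.9% of the 28 and 41.2% of the 34 members that fell with age. Over all genes tested in both, 43.6% and 49.4% of those lower in *daf-2* animals were also lower on day 3 and day 7. Of all such genes that fell with age, 40.3% on day 3 and 39.5% on day 7 were lower in *daf-2* animals, near the members' shares. *nhr-19*, *nhr-31*, *nhr-121* and *nhr-137* were among the members lower in all 3 comparisons. The opposite combination, lower in *daf-2* animals and higher with age, was met by 6 members (15% of the 40, against 22.9% of all genes lower in *daf-2* animals) on day 3 and 8 (20%, against 23.9%) on day 7, among them *nhr-3* and *nhr-14*, although the *daf-2* call of *nhr-14* was lost with library totals alone. Of the 16 members higher in *daf-2* animals, 4 (25%, against 40.4% of all such genes) were also higher on day 3 and 6 (37.5%, against 41.2%) on day 7, among them *nhr-131* at both ages. Higher in *daf-2* animals and lower on day 7 were *nhr-53* and *nhr-208* (12.5% of the 16, against 25.0% of all such genes). No member had that combination on day 3, where 18.1% of all such genes did. The log2 fold change of *nhr-53* on day 7, -1.98, was -1.33 without day 7 replicate 1 and -3.51 without day 7 replicate 2. The call of *nhr-208* on day 7 was lost without day 1 replicate 1 (adjusted p = 0.27) and without day 7 replicate 2 (adjusted p = 0.261).

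The last comparison set *glp-4* against WT animals on day 1. Here the members stood well apart from the background, with 144 of 191 tested members higher and 13 lower. Of all 15610 genes tested, 85.4% were called, 45.5% as higher and 40% as lower, against 75.4% and 6.81% of the members. At least 2-fold higher were 121 members (63.4%, against 37.7% of all genes) and at least 2-fold lower 10 (5.24%, against 32.3%). The median log2 fold change was 1.47 over the members and 0.28 over all genes. Both medians moved together with the scaling, to 1.23 and 0.03 with DESeq2 size factors, 1.82 and 0.63 with upper-quartile scaling, 1.14 and -0.04 with library totals alone and 0.77 and -0.21 with limma on log2(TPM + 1). The members' median lay above that of all genes in each. The low-count filter used all 12 samples, so a gene could pass it through the samples of 1 strain alone. Over the 153 members with at least 10 counts in every compared sample, the median was 1.44, against 0.30 over all genes kept in that way. The 6 germline markers were lower in *glp-4* animals and the 3 muscle and 3 epidermis markers higher, with median log2 fold changes of -5.45, 2.46 and 2.08, and their part in the members' shift was not tested.

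*nhr-41* had 6.29, 7.97 and 8.15 CPM in WT and 97.5 and 84.7 CPM in *glp-4* animals (log2 fold change 3.60 ± 0.14 SE, adjusted p = 6.5e-14). *nhr-31* had 14.8, 13.4 and 17.6 CPM against 115 and 129 CPM (2.99 ± 0.12 SE, adjusted p = 1.0e-13), and *nhr-19* 4.09, 3.74 and 4.1 CPM against 51 and 49 CPM (log2 fold change 3.65). These 3 receptors, all lower with age in *glp-4* animals, showed a gap between strains many times the spread within either. The comparisons with day 1 and this one share the *glp-4* samples of day 1. Being higher here and lower with age are therefore not independent results. *nhr-97* had 56.6 to 62.3 CPM in WT and 238 and 275 CPM in *glp-4* animals (2.09), and *nhr-141* had 0.429 to 0.968 CPM against 24.5 and 26.6 CPM (5.18). *nhr-35* (2.73), *nhr-68* (2.15) and *nhr-88* (2.02) were among the other named members that were higher.

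The lower members were few. *nhr-2*, a receptor of the early embryo that the study knocked down, was nearly absent from *glp-4* animals, with 453, 406 and 530 counts in the WT samples and 0 and 2 in the *glp-4* samples on day 1. The ratio was 226-fold lower, with a counting interval of 62.5 to 1852, and the fitted log2 fold change of -7.70 was -6.87 or -11.37 with 1 *glp-4* sample left out. In *daf-2* animals it had 591, 464 and 758 counts. With age the *glp-4* samples had 4 and 0 counts on day 3 and 8 and 13 on day 7, a ratio of 17.2 (4.21 to 151) of day 7 over day 1. The summed germline markers rose over the same days, and their part in the counts of *nhr-2* was not tested.

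*nhr-66* had 100, 94.5 and 96.1 CPM in WT and 36.3 and 31.3 CPM in *glp-4* animals (log2 fold change -1.52 ± 0.09 SE, adjusted p = 4.4e-11). *nhr-23*, which drives moulting and also acts in sperm formation, had 51.6, 51.7 and 57.4 CPM against 14.2 and 12.7 CPM (adjusted p = 2.4e-10). *nhr-6* had 18.8, 25.3 and 36.2 CPM against 9.43 and 7.68 CPM (-1.65 ± 0.24 SE, adjusted p = 4.3e-06). *nhr-181* (-3.01), *nhr-20* (-1.24), *nhr-86* (-1.22) and *nhr-274* (-1.19) were lower as well.

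**Figure D5:**
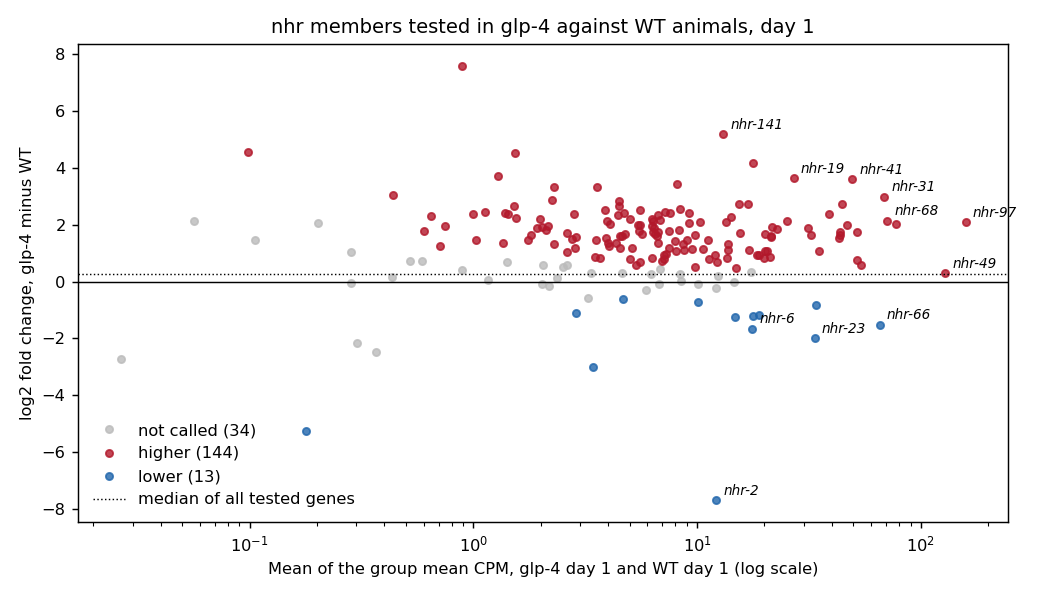
Log2 fold change of *glp-4* over WT animals on day 1 against mean CPM (log axis) for the 191 tested members, red for higher (144), blue for lower (13) and grey for not called (34), with a dotted line at the median of all tested genes. Most points lie above the dotted line at 0.28 and *nhr-2* lies lowest at -7.70, while 4 members had 0 counts in 1 of the strains, so their plotted value depends on the fit.

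By role, 7 of 9 conserved, 6 of 8 metabolic, 5 of 6 stress and xenobiotic and 5 of 9 developmental receptors were higher in *glp-4* animals, where 45.5% of all genes were. Lower were 2, 2, 1 and 3 of them in the same order, where 40% of all genes were. In *nhr-49* the direction depended on the scaling, with 0.30 ± 0.09 (SE, adjusted p = 0.00343) in the fit reported here and -0.19 with limma on log2(TPM + 1). *nhr-85*, a Rev-erb counterpart, had 1.86 against 33.6 CPM (log2 fold change 4.16 ± 0.23 SE), but 33.19% of its exon bases overlap another gene on the opposite strand. *nhr-13*, an NHR-49 partner, was lower at -0.72 ± 0.21 (SE, adjusted p = 0.00474), a call lost without *glp-4* day 1 replicate 2 (adjusted p = 0.129). All 5 propionate shunt genes and 5 of 6 NHR-49 and NHR-80 targets were higher, among them *acs-2* with 145 against 5.13 CPM (4.82 ± 0.28 SE).

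Neighbouring receptors were looked at in the 4 longest runs. The 7 members from *nhr-56* to *nhr-96* at chrV:2219004-2235180 were all higher in *glp-4* animals and not called in *daf-2* animals. Within it, *nhr-103* had 1.88 to 2.69 CPM in WT and 9.78 and 10.9 CPM in *glp-4* animals on day 1, and *nhr-96* 2.99 to 3.92 CPM against 10.7 and 12.4 CPM. Of the 7 from *nhr-161* to *nhr-42* at chrV:6980587-7000651, 6 were higher and 1 lower, and of the 7 from *nhr-206* to *nhr-136* at chrV:12092006-12109313, 6 were higher and 1 was not tested. In the run of 9 from *nhr-185* to *nhr-124*, 7 had too few counts to test and 2 were not called. Of all tested members, 75.4% were higher in *glp-4* animals. In *daf-2* animals, 2 members of the *nhr-161* run were lower, and 1 of the *nhr-206* run was higher and 1 lower. In the run of 9, 1 was not called there and 8 were not tested. Of all tested members, 24.0% were lower and 9.58% higher in *daf-2* animals (all genes 22.5% and 25.5%). On chromosome V as a whole, 87 of 115 tested members were higher in *glp-4* animals, against 53.6% of all genes tested there.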

How the data were processed

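Estimated counts per gene and TPM values were used as the authors deposited them, 1 column per sample and none pooled. The deposited estimated counts were already whole numbers. The deposited TPM values correct for transcript length. Per the labels' processing notes, the tools named include kallisto and edgeR and the builds WBcel235 and ce11, with no versions or roles. The labels name a TruSeq RNA kit that does not mark strand. Library totals ran from 4538353 to 22484551 counts, which limits precision most on day 7.

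Counts were tested with edgeR 4.0.16 (quasi-likelihood, TMM factors) in R 4.3.3 after a filter on low counts (filterByExpr, minimum count 10, minimum total 15), over all genes, with Benjamini-Hochberg adjustment and a threshold of 0.05. The *daf-2* and WT samples were fitted alone, the *glp-4* ages together, and *glp-4* against WT in a model of all 12 samples, so CPM values differ slightly between these models. The SE was taken from the fold change and its F statistic. A group at 0 counts was set to a floor of 3 counts over the group. Ratios of low counts carry exact binomial intervals for counting error. The steps were tested on simulated data. Nothing states that samples of a group were separate cultures, so p-values measure the spread between these samples, which may be technical.

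The naming rule took members with an adjusted p under 0.05, a change of at least 1 on the log2 scale and no overlap between groups. Per comparison it kept up to 8 that rose and 8 that fell, by lowest adjusted p. For day 7 against day 3 it kept up to 5 and 5. It also took the 10 highest by TPM, every member of the role lists, and *nhr-2*. Not every member of the role lists is described in the report. Other members named in the report, such as those of the runs, were chosen after their values were seen. Members and lists were chosen with earlier results of these data known. Alternatives were DESeq2 1.42.0 and its size factors, upper-quartile scaling, library totals alone, limma 3.58.1 on TPM values in log2 with a pseudocount of 1 or 0.1 (mean TPM no lower than 1), other filters and sample sets, a threshold of 0.01, the replicate number as a block, and each sample left out. Leaving out members with exon overlap and thinning the *glp-4* libraries to 4538353 counts were added after seeing the data. Figures were drawn with matplotlib 3.10.9 in Python 3.11.15. No reference sequence was used here.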

Additional observations from a re-analysis of the deposited data

How the results depend on the processing

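For 191 fold changes of named members, 2833 alternative values were computed, of which 2542 kept their direction and their side of the threshold, 269 kept the direction but lost the call, and 22 turned. The cause was not tested. Higher and lower members in *daf-2* animals were 25 and 25 with library totals alone, against 16 and 40, and lower ones were 23 with limma at either pseudocount and 21 at a threshold of 0.01. By day 3, lower members were 17 with limma on log2(TPM + 1) and 16 on log2(TPM + 0.1). By day 7, higher and lower members were 86 and 15 with library totals, 69 and 15 with limma on log2(TPM + 1) and 69 and 14 on log2(TPM + 0.1). Between day 3 and day 7 they were 63 and 3 with library totals, 32 and 4 and 30 and 4 with limma, and 6 and 11 at the stricter threshold, while 8 were higher with DESeq2 and 8 among members without exon overlap. With 1 sample left out, higher and lower members ranged from 13 to 18 and 26 to 38 in *daf-2* animals, 23 to 35 and 19 to 29 by day 3, 25 to 39 and 27 to 39 by day 7, 5 to 7 and 9 to 16 between day 3 and day 7, and 134 to 143 and 11 to 13 in *glp-4* against WT animals. Some single members turned. By day 7, library totals gave *nhr-35* 0.04, *nhr-66* 0.18, *nhr-85* 0.04 and *nhr-97* 0.22, and limma at its pseudocounts of 1 and 0.1 gave *nhr-66* 0.38 and 0.41, *nhr-85* 0.15 and 0.16 and *nhr-97* 0.13 and 0.13. Between day 3 and day 7, library totals gave *nhr-11* 0.16, *nhr-14* 0.03 and *nhr-49* 0.13, and limma *nhr-11* 0.01 and *nhr-49* 0.04 at both. In *glp-4* against WT, limma gave *nhr-46* -0.01 and *nhr-49* -0.19 at both, and library totals *nhr-49* -0.03.

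With the replicate number as a replicate block, higher and lower members were 16 and 36 in *daf-2* animals, 35 and 31 by day 3, 41 and 37 by day 7, 14 and 19 between day 3 and day 7, and 145 and 13 in *glp-4* against WT. Deviations of same-numbered *daf-2* and WT samples correlated between -0.0169 and 0.0224, and those of differently numbered ones between -0.0421 and 0.042. Values this small do not settle whether same-numbered samples were collected together. Depth limits the members with few counts most.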

Other observations

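Nuclear receptor genes without an *nhr* symbol were measured beside the family. *daf-12*, the receptor for dafachronic acids, was not called in *daf-2* animals (log2 fold change 0.20), rose by day 3 and day 7 (0.66 and 0.41) and was higher in *glp-4* than in WT animals (2.73). *sex-1*, a receptor of sex determination, was higher in *daf-2* animals (0.30) and lower in *glp-4* than in WT animals (-1.20). Of the ligand and cofactor genes, *mdt-15*, a Mediator subunit that works with NHR-49, was lower in *daf-2* animals (-0.21) and by day 7 (-0.61), and *daf-36* and *daf-9*, enzymes of dafachronic acid synthesis, were lower by day 7 (-1.74 and -1.86). Summed neuron markers were 165 to 173 CPM in WT, 258 to 261 CPM in *glp-4* animals on day 1 and 467 to 493 CPM on day 7, where *snb-1* alone of the 4 genes rose (1.54), *unc-104* fell (-0.42) and the median was -0.30. In *glp-4* animals summed intestine markers were 38099 to 57294 CPM on day 1, 124563 to 155402 CPM on day 3 and 55441 to 58971 CPM on day 7. Of these 4 genes, 3 rose and 1 fell by day 3 (median 1.26), and 1 rose and 2 fell by day 7 (median -0.43). Summed embryo markers were 334 to 367 CPM in WT and 308 to 309 CPM in *glp-4* animals on day 1, but most of this sum was *skn-1*, which was higher in *glp-4* animals (0.30). The other 2 tested embryo genes were lower, *pal-1* with a mean of 9.81 against 102 CPM and *pes-10* with 0 against 10.7 CPM, and their part in the level of *nhr-2* was not tested. Summed sperm markers were 11.5 to 14 CPM in WT, 21.2 to 24.9 CPM in *daf-2* animals and 0.0985 to 0.349 CPM in *glp-4* animals on day 1.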
